A study of Mus musculus with 2 samples.

Results

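Imprinted genes are expressed mainly or only from the allele inherited from a given parent. The 44 genes described here, 38 protein-coding and 6 noncoding, were named as a list of imprinted genes and of their host and neighbouring genes, and were ordered by imprinted cluster. They stand among 31500 mouse genes for which a 5′ end could be placed on the mm10 assembly, 21535 of them protein-coding and 9965 noncoding. A 5′ end could be placed for 43 of the 44, since the strand of Peg13 was not given in the sources used here.

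The data were lists of peaks from chromatin immunoprecipitation and sequencing (ChIP-seq) of histone H3 trimethylated at lysine 4 (H3K4me3), a mark of active and poised promoters. The cells were E14TG2a.4, a male embryonic stem cell line of strain 129/Ola whose labelled age is embryonic, 3.5 day. They formed 1 group of 2 biological replicates of the same line, with no treated, differentiated or other control group, so no difference between conditions could be tested. No group carried an edited allele or an agent, per the labels. Replicate 1 had 86781 peaks on mm10, replicate 2 had 83750, and the authors' replicated list, derived from both, had 62128. Reads were not used here and depth is unknown. Of all coding genes, 66.6% had a promoter peak in the replicated list. Of 10 stem cell marker genes, all coding, 9 had one, and the remaining gene, Esrrb, had a peak at another RefSeq start. Of 10 markers of fibroblasts, which can serve as feeder cells, 5 had a promoter peak, with signals of 5.75 to 23.4, and Col3a1, Lum, Dcn, Acta2 and Postn had none. The part of such cells in the values below was not tested. In these bulk peak lists, fewer marked cells and less mark per cell cannot be told apart, and the lists do not separate the parental alleles.

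Imprinted genes lie in clusters, each governed by a stretch of DNA that is methylated on the allele of a given parent. These differentially methylated regions often coincide with a CpG-rich promoter, whose unmethylated allele can carry H3K4me3 while the methylated allele is kept silent. Many clusters hold a long noncoding RNA whose start lies inside or beside a protein-coding gene, and several imprinted genes are retrogenes that start within an intron of a host gene. The zinc finger protein Zfp57 binds the methylated hexamer TGCCGC and helps to keep the methylation at such regions in embryonic stem cells.

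The 6 promoters below are each the start of a gene at a known germline differentially methylated region, and were picked for their spread in H3K4me3 signal. They run from 250 bases before the start to 50 after it, come from RefSeq on GRCm38.p6 (mm10), and read 5′ to 3′ along the gene's own strand. Capitals mark the hexamer, TGCCGC or its reverse complement GCGGCA, searched on both strands. Kcnq1ot1 lies at chr7:143296498-143296797 (minus strand), inside Kcnq1. Zrsr1 lies at chr11:22971755-22972054 (plus strand), inside Commd1. The Snrpn start shown, an inner one, lies at chr7:60005150-60005449 (minus strand). Nnat lies at chr2:157559828-157560127 (plus strand), inside Blcap. Nap1l5 lies at chr6:58907077-58907376 (minus strand), inside Herc3. The inner Mest start lies at chr6:30737800-30738099 (plus strand).
Kcnq1ot1: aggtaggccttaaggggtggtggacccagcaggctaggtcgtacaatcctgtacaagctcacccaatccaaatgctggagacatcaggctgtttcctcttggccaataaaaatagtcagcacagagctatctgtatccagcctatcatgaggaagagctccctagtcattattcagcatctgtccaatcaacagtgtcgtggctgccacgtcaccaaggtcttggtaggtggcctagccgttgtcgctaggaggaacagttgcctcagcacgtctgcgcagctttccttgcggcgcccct
Zrsr1: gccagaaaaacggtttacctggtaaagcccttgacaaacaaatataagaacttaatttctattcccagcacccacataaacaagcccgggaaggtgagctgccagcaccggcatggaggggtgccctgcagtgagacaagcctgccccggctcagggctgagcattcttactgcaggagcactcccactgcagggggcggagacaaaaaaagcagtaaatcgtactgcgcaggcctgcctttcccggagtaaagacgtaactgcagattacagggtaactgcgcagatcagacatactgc
Snrpn: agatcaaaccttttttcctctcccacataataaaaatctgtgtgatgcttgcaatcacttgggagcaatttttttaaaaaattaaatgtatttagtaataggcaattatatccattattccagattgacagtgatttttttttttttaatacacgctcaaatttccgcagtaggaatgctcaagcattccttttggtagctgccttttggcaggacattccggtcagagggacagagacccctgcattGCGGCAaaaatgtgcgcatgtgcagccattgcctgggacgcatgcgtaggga
Nnat: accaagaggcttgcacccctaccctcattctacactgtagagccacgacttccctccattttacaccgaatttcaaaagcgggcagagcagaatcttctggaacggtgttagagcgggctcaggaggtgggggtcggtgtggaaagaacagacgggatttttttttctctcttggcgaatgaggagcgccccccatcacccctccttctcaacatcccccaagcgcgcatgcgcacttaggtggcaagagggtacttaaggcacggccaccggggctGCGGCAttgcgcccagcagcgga
Nap1l5: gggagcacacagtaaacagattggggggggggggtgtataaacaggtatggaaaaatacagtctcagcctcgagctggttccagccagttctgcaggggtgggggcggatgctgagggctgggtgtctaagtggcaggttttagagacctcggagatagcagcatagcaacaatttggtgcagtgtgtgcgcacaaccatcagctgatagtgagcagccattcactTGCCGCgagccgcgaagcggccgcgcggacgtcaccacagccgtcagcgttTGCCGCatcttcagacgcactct
Mest: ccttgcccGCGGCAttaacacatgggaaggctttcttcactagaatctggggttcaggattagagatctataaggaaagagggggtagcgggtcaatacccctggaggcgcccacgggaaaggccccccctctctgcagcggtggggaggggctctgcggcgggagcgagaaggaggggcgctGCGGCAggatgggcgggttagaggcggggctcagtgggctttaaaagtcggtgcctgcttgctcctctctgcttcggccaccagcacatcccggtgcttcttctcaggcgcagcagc

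The first 3 promoters carried signals of 28.9 (Kcnq1ot1), 33.2 (Zrsr1) and 31.2 (Snrpn), where the signal is the authors' ratio of ChIP over control at a peak. The other 3 carried 3.31 (Nnat, the peak over the start), no peak in the replicated list (Nap1l5) and 4.89 (inner Mest start). CpG content differed among the 6, which were picked for their spread in signal, so it is given as a description. Nnat, Nap1l5 and the inner Mest start held 17 CpG each, with observed-to-expected CpG ratios of 0.690, 0.701 and 0.590. Kcnq1ot1 held 9 CpG at a ratio of 0.422, Zrsr1 held 10 at 0.475 and Snrpn held 7 at 0.574. Over 32817 promoters of the same length, the median was 7 CpG and a ratio of 0.383. Peg3, Airn and Plagl1, also starts at known germline differentially methylated regions, were left out of the 6. Peg3 had a signal of 42.3, with 13 CpG at a ratio of 0.463 and no hexamer. Airn had 10.1, with 3 CpG at 0.192 and no hexamer. Plagl1 had 3.74, with 26 CpG at 0.696 and 1 hexamer. Among other imprinted genes with modest signals, Slc22a18 had few CpG, 2 at a ratio of 0.0919. Others with modest signals had many, such as Rasgrf1 with 26 at 0.748 and Grb10 with 45 at 0.973. The hexamer occurred 2 times in Nap1l5, 2 times in the Mest promoter, 1 time in Nnat and 1 time in Snrpn, and in neither Kcnq1ot1 nor Zrsr1 within this window. Of all promoters of this length 11.6% held the hexamer and 1.53% held it at least 2 times. Of the 50 promoters listed for 34 of the 44 genes, 13 held it, and some of these windows overlap each other. The promoter at the 5′ end of Zdbf2, which had a signal of 5.46, held the hexamer 3 times. A match describes the letters of the window only.

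A gene counted as marked if any peak reached into the window from 1 kb before its 5′ end to 1 kb after it. In the replicated list 36 of the 43 genes were marked. Among the coding genes 32 of 38 were marked, where 66.6% of all coding genes were, and among the noncoding genes 4 of 5, where 32.5% of all noncoding genes were. Replicate 1 alone marked 32 coding genes (67.0% of all coding genes) and replicate 2 marked 33 (66.8%). No peak stood at the 5′ end of 7 genes, which were H19, Igf2, Rtl1, Snrpn, Commd1, Ddc and Nap1l5. When peaks inside the gene were counted too, 36 of 38 coding genes had a peak, against 74.3% of all coding genes, and H19, Rtl1 and Nap1l5 remained without a peak. Host genes with another gene's start inside are on the list, and gene lengths were not matched. A peak near the 5′ end or any RefSeq start was likewise found for 36 of 38 coding genes, against 69.5%. Where genes start close together, the same peak could mark both. A peak lay over the 5′ end itself in 29 of the 36 marked genes, and in 28 it was the strongest of the window, whose signal is given below. Peg3 and Usp29 shared a peak, as did Peg10 and Sgce, so the 36 marked genes rested on 34 different strongest peaks.

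Marked imprinted genes had a median signal of 26.2, with quartiles of 16.3 and 42.3 and a range of 3.74 to 81.4. The other 17549 marked genes, coding and noncoding together, had a median of 39.7, with quartiles of 18.6 and 56.2. Of all marked genes 3242 were noncoding, and of the 36 imprinted ones 4 were. Signals and widths were not split by type. In replicate 1 the medians were 24.8 for the imprinted genes and 35.5 for the others, and in replicate 2 they were 21.5 and 33.7. The imprinted genes thus had the lower median in both replicates, and the ranges overlapped widely. Of the 36, 25 lay under the median of the other marked genes, and 13 lay under their lower quartile. The domain at the promoter, made by joining peaks less than 1 kb apart, had a median width of 2681 bp in the imprinted genes and 2373 bp in the others. The summit lay downstream of the 5′ end in 29 of the 36 genes, and in 78.8% of the other marked genes.

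**Figure D1:**
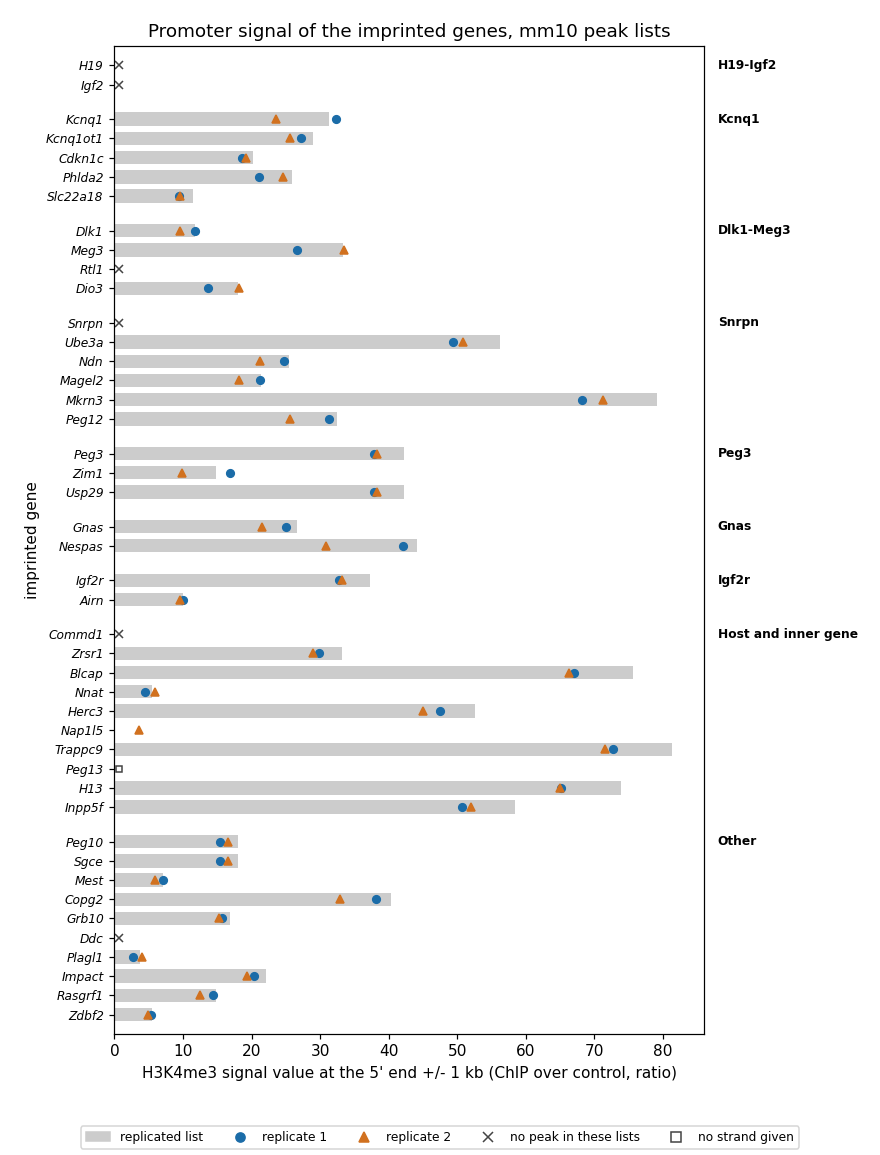
H3K4me3 signal (ratio of ChIP over control, linear axis) at the 5′ end of each imprinted gene, by cluster; bars give the replicated list, circles replicate 1 and triangles replicate 2. Trappc9, Mkrn3, Blcap and H13 lie above 70, Plagl1, Nnat, Zdbf2 and Mest lie under 8, and H19, Igf2, Rtl1, Snrpn, Commd1 and Ddc have no peak there in these lists.

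The replicates gave similar values for most genes. The ratio of replicate 1 to replicate 2 had a median of 1.02 over the 36 genes marked in both. It lay between 2/3 and 3/2 for 34 of them, and for 95.9% of the other genes marked in both. The exceptions were Plagl1 at 0.655 and Zim1 at 1.72. For Plagl1 the ratio sets different peaks of the window against each other, since replicate 1 had none over the start. It does so for Grb10 too, whose strongest peaks in the 2 replicates lay on opposite sides of the 5′ end.

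**Figure D2:**
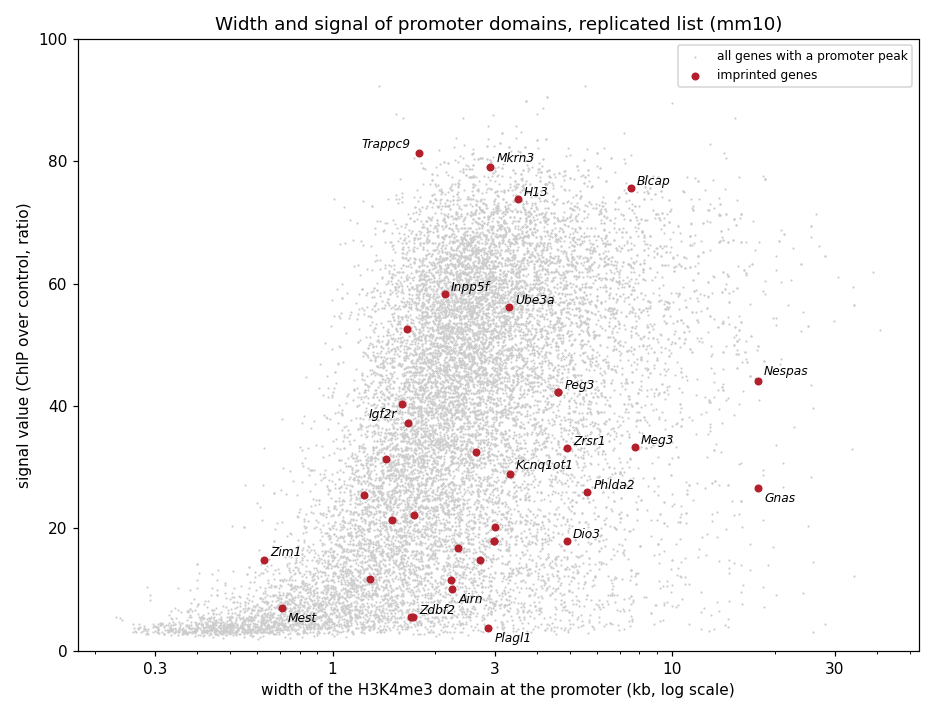
Width of the promoter domain (kb, log axis) against signal (ratio, linear axis) in the replicated list; each grey point is a gene with a promoter peak and each red point an imprinted gene. Gnas and Nespas share the widest domain of the imprinted genes at 17.84 kb, and Trappc9 reaches the highest signal of them, 81.4, in a domain of 1.8 kb.

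In the Kcnq1 cluster on chromosome 7 all 5 genes were marked, with a median signal of 25.9. Kcnq1ot1, the long antisense RNA through which the paternal allele of the cluster is silenced, had a signal of 27.2 in replicate 1, 25.6 in replicate 2 and 28.9 in the replicated list. Its peak of 3324 bp lay inside Kcnq1, with the start 189.7 kb from the Kcnq1 5′ end and the summit 1081 bp downstream of that start. Kcnq1 itself, a potassium channel subunit, had 32.3, 23.6 and 31.3 in the same order. The host start was higher than the inner start in replicate 1 and lower in replicate 2, so their order did not hold between the replicates. Kcnq1 held 13 further peaks inside the gene, of which all but that of Kcnq1ot1 were under 10. Cdkn1c, an inhibitor of cyclin-dependent kinases, had 18.6 and 19.2 in the replicates and 20.3 in the replicated list. Phlda2, which restrains placental growth, had 21.0, 24.5 and 25.9 and a domain of 5617 bp. Slc22a18, a membrane transporter, was the lowest of the cluster with 9.48, 9.59 and 11.5. Between the genes, 5 peaks fell outside all members, the strongest of 12.5 at chr7:143437247-143438853, 22.2 kb from Cdkn1c.

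The H19-Igf2 pair on the same chromosome was unmarked at both 5′ ends. H19, a noncoding RNA expressed from the maternal allele, had no peak at its start in any of the 7 lists. A peak with a signal of 4.17, and of 3.67 and 4.15 in the replicates, lay 2.55 kb from its start at chr7:142580698-142581492. The methylated control region of this pair is known to lie in the stretch upstream of H19. Igf2, a fetal growth factor expressed from the paternal allele, had no peak at the 5′-most start. Its inner starts, 5.5 to 9.3 kb downstream, all lay within 1 kb of a peak of 3243 bp with a signal of 8.48 in the replicated list. The start 9.3 kb in was not covered by a peak. For a replicate 1 peak within this stretch, the nearest RefSeq start was that of Igf2os, 111 bp away. At the start 5.5 kb in, the replicates gave 7.34 and 6.74. In mm9, 8 of 9 annotated Igf2 starts had a region, with a highest signal of 13.4, and none of the 5 H19 starts had any. The median over the 39 imprinted genes with a region in mm9 was 14.2, so Igf2 was low among them in the mm10 lists and near the median in mm9.

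The Dlk1-Meg3 cluster on chromosome 12 had 3 of 4 genes marked. Meg3, a noncoding RNA of the maternal allele, was the strongest with 26.7 in replicate 1, 33.4 in replicate 2 and 33.4 in the replicated list, in a domain of 7736 bp. The 5′ end of Gm34081 lay in the strongest Meg3 peak too. Dio3, which inactivates thyroid hormone, had 13.7, 18.1 and 17.97 in a domain of 4891 bp. Its strongest peak also held the 5′ end of Dio3os. Dlk1, a membrane protein of the paternal allele, had 11.7, 9.59 and 11.8. Rtl1, a retrotransposon-derived gene needed in placenta, had no peak in the replicated list. Replicate 2 had a peak of 2.67 inside it, 11.6 kb from the 5′ end. Of the 28 peaks in this span of 828.6 kb, 21 lay outside all members. A peak with a signal of 14.8 (13.9 and 10.2 in the replicates) lay 10.3 kb upstream of Meg3 at chr12:109527533-109530669. It lay in the interval between Dlk1 and Meg3 that holds the intergenic control region of the cluster, and 1264 bp from a start of Gm34081. The strongest peak outside all members, 20.8 (18.8 and 18.9), lay at chr12:109948536-109950666, 328.6 kb from Dio3 and 26.6 kb from the nearest RefSeq start, that of Gm34554.

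In the Snrpn cluster on chromosome 7, 5 of 6 genes were marked. Mkrn3, a makorin zinc finger gene without introns, had 68.3 in replicate 1, 71.2 in replicate 2 and 79.1 in the replicated list, at percentile 99.3 of all marked genes. Ube3a, a ubiquitin ligase imprinted chiefly in neurons, followed with 49.4, 50.8 and 56.2. Both were above the other marked genes of the cluster in each mm10 replicate. In the mm9 list of the whole series this order did not hold, with 25.9 for Mkrn3, 23.8 for Ndn and 20.6 for Ube3a. In mm9 replicate 1 it did, with 34.4 for Mkrn3, 39.2 for Ube3a, 27.6 for Ndn and 21.6 for Snrpn. In mm9 replicate 2 it did not, since Snrpn had 32.3, above Ube3a at 31.6, Mkrn3 at 30.2 and Ndn at 27.8. The Snrpn values in mm9 came from an inner start. Peg12 had 31.3, 25.6 and 32.5, and Ndn, a member of the necdin and MAGE family, had 24.7, 21.2 and 25.4. Magel2, of the same family, was lowest with 21.3, 18.1 and 21.4. Snrpn, a splicing protein gene, had no peak at its 5′ end or at the starts 310 and 402.2 kb downstream. The start 445 kb downstream, whose sequence is shown above, had 28.6, 26.9 and 31.2. Of the 4 Snrpn starts, the marked one also had the highest observed-to-expected CpG ratio, 0.574 against 0.132, 0.174 and 0.257. Snurf, which is read from the same transcript, shared the peak.

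**Figure D3:**
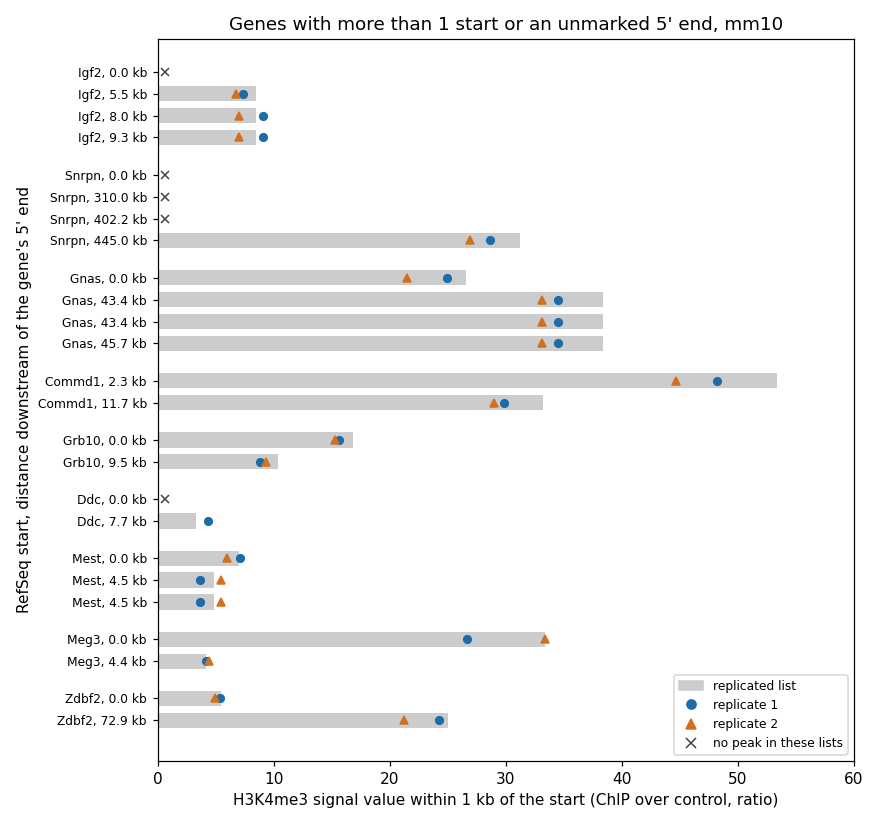
H3K4me3 signal (ratio, linear axis) within 1 kb of each RefSeq start of 9 imprinted genes, labelled by distance from the gene's 5′ end; bars give the replicated list, circles replicate 1 and triangles replicate 2. Snrpn is marked only at the start 445 kb downstream, Igf2 only at the inner starts, and Zdbf2 has 25.02 at an inner start against 5.46 at the 5′ end.

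The Peg3 cluster had all 3 genes marked. Peg3, a zinc finger gene of the paternal allele, and Usp29, a ubiquitin peptidase gene read in the opposite direction, start beside each other. They shared a peak of 4622 bp with a signal of 37.9 in replicate 1, 38.3 in replicate 2 and 42.3 in the replicated list. Zim1, a zinc finger gene of the maternal allele, had 16.9, 9.84 and 14.8 in a domain of 630 bp, the narrowest of the 36. The Peg3 and Usp29 peak was above that of Zim1 in both replicates. In mm9 Usp29 was without a region, since its only annotated start there lies at an inner position, at chr7:6913871.

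The Gnas locus on chromosome 2 held the widest domain of the imprinted genes. Gnas encodes the stimulatory G protein subunit and variants that begin at other starts, and Nespas (Gnasas1 in the gene table) is antisense to the most upstream of them. The 5′ end of Gnas had 24.96 in replicate 1, 21.5 in replicate 2 and 26.6 in the replicated list. The start of Nespas had 42.1, 30.9 and 44.1, the higher of the pair in both replicates. The peaks of both starts joined into a domain of 17838 bp, wider than those of 99.6% of marked genes. Replicate 1 gave 17751 bp, whereas in replicate 2 the stretch was split into domains of 5813 and 10705 bp. The Gnas starts 43.4 to 45.7 kb downstream shared a separate peak of 34.5 in replicate 1 and 38.4 in the replicated list. In replicate 2 that stretch was split, with 15.5 over the starts 43.4 kb downstream and 33.2 over the start 45.7 kb downstream. In mm9, 15 of 16 annotated Gnas starts had a region.

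At Igf2r on chromosome 17 the host promoter was several times stronger than the start of the noncoding RNA inside it. Igf2r, a receptor that clears Igf2, had 32.8 in replicate 1, 33.2 in replicate 2 and 37.2 in the replicated list. Airn, whose transcription silences the paternal Igf2r allele after differentiation, starts 28.4 kb inside Igf2r and had 10.03, 9.59 and 10.1. The ratio of host to inner signal was 3.27 in replicate 1 and 3.46 in replicate 2. In replicate 2 the Airn value of 9.59 came from a peak 583 bp from the start, and the peak over the start had 8.55. In mm9 the same starts had 23.1 and 4.79. The RefSeq promoter of Airn held 3 CpG at an observed-to-expected ratio of 0.192, in a window that covers only the start.

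Host starts were compared with the start of a gene inside the host at 7 places, Peg13 being taken at the end that had a peak. Commd1 was taken at a RefSeq start 2.3 kb downstream, since it had no peak at the 5′ end, and the other hosts at the 5′ end. So measured, the host was the higher in all 7 in the replicated list and in replicate 1, and in 6 of 7 in replicate 2, Kcnq1 being the exception. With Commd1 at its 5′ end too, the counts were 6, 6 and 5. The hosts Trappc9, a protein of vesicle transport, Blcap and H13, a signal peptide peptidase, were among the strongest imprinted genes in the mm10 lists. Trappc9 had 72.7, 71.5 and 81.4, Blcap 67.1, 66.3 and 75.6, and H13 65.1, 65.0 and 73.9 in replicate 1, replicate 2 and the replicated list. In mm9 they had 18.3, 14.2 and 15.1, nearer the median of 14.2. Their inner starts were weak or intermediate in mm10. Peg13, a noncoding RNA within Trappc9, had a peak of 3.67, 3.89 and 4.17 at its higher-coordinate end and none at the other end. Nnat, which encodes a small membrane protein of neurons and endocrine cells, had 3.43, 2.89 and 3.31 over its start inside Blcap. A separate peak that ends 0.7 kb upstream of the Nnat start gave the highest values of its window, 4.40, 5.96 and 5.46. Over all annotated starts in mm9, Blcap and Nnat had the same highest signal, 14.2 in the series list and 16.2 in replicate 2. In mm9 replicate 1 they had 22.7 and 3.55. Mcts2, a retrogene in H13, had 17.1, 23.2 and 25.9.

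Herc3, a gene of the HERC ubiquitin ligase family, had 47.5, 45.1 and 52.6. Nap1l5, the retrogene 75.7 kb inside it, had no peak in replicate 1 or the replicated list, 3.63 in replicate 2 and 3.31 in the authors' pooled list. In mm9 Nap1l5 likewise had no region in replicate 1, 3.19 in replicate 2 and 2.68 in the list of the whole series. Its mark was thus near or under the lists' thresholds. The strongest inner peak of Inpp5f, an inositol phosphatase gene, lay 77.1 kb from the 5′ end and had 35.7, 34.5 and 39.7, against 50.7, 52.1 and 58.4 at the 5′ end. The nearest start in the tables used here, that of Mcmbp, was 51.5 kb from this inner peak. Commd1, a gene involved in copper homeostasis, had no peak at the 5′ end of the gene table but had 48.2, 44.7 and 53.3 at a RefSeq start 2.3 kb downstream. Zrsr1, a splicing factor retrogene in Commd1, had 29.9, 29.0 and 33.2 in a domain of 4911 bp. The starts inside hosts ranged from no peak at Nap1l5 to 33.2 at Zrsr1 in the replicated list.

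**Figure D4:**
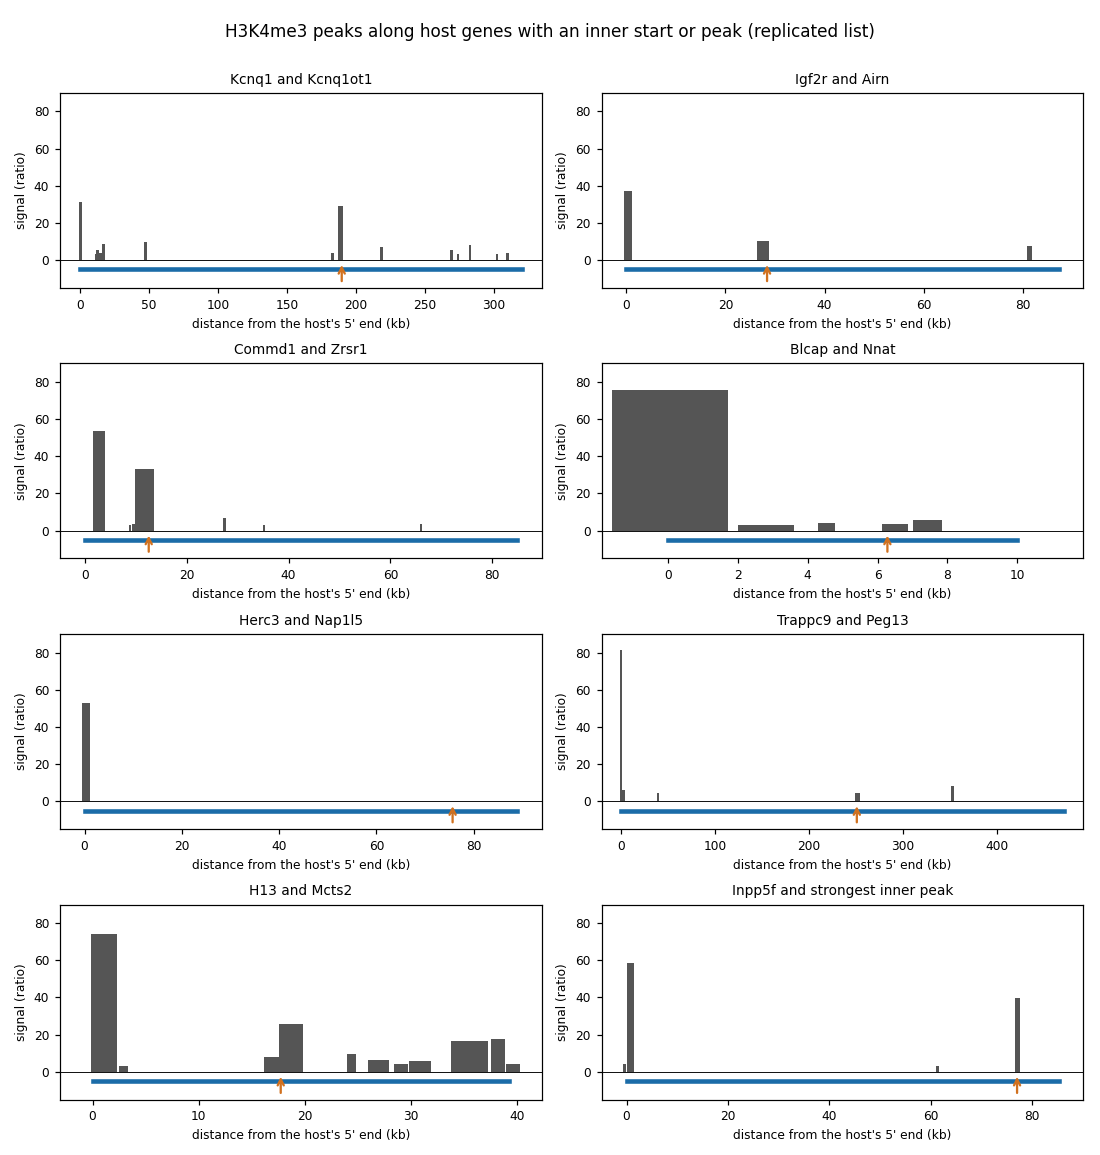
H3K4me3 peaks of the replicated list along 8 host genes, by distance from the host's 5′ end (kb) and signal (ratio, linear axis); blue bars show the host gene, orange arrows the inner start or, in Inpp5f, the strongest inner peak, and short peaks are drawn slightly widened. The tallest bar of each panel is at the host's 5′ end, or 2.3 kb downstream in Commd1, from 31.3 in Kcnq1 to 81.4 in Trappc9, and no peak stands at Nap1l5 in Herc3.

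Outside the larger clusters 9 of 10 genes were marked, and several were weak. Peg10, a retrotransposon-derived gene needed for the placenta, and Sgce, a sarcoglycan gene read in the opposite direction, start beside each other. The strongest peak in both windows had 15.4 in replicate 1, 16.6 in replicate 2 and 17.97 in the replicated list. It overlapped Peg10 and not Sgce. A separate peak on the Sgce side had 7.83, 9.07 and 9.49. Plagl1, a zinc finger transcription factor gene, was the weakest marked gene with 3.74 in the replicated list, at percentile 2.7 of all marked genes. The peak over its start had 4.09 in replicate 2 and no counterpart in replicate 1, whose 2.68 came from a peak 0.8 kb downstream. Its promoter held 26 CpG at an observed-to-expected ratio of 0.696, above the 0.383 of the median promoter, and the peak of the replicated list also covered the start of Hymai. Mest, a hydrolase-family gene of the paternal allele, had 7.10, 5.96 and 7.05 at the 5′ end and 3.67, 5.44 and 4.89 at the start 4.5 kb downstream. Its neighbour Copg2, a coatomer subunit gene, had 38.2, 32.9 and 40.4. Copg2 was above Mest in both replicates by a wide margin.

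Grb10, an adaptor of growth factor receptors, had 15.7, 15.3 and 16.8 within 1 kb of the 5′ end. A peak covered that end in the replicated list and in neither replicate. The promoter there held 45 CpG at an observed-to-expected ratio of 0.973. The Grb10 start 9.5 kb downstream had 8.81, 9.33 and 10.4. The neighbour Ddc, an amino acid decarboxylase gene, had no peak at its 5′ end but 15 peaks inside, none above 8.53. Its start 7.7 kb downstream had 4.35 in replicate 1, no peak in replicate 2 and 3.33 in the replicated list. Rasgrf1, a Ras exchange factor gene, had 14.4, 12.4 and 14.8. Impact, a regulator of translation, had 20.3, 19.4 and 22.1 near the 5′ end, which that peak did not cover. A stronger peak 18.3 kb inside the gene had 25.9, 21.1 and 28.6. The mm9 gene has 1 annotated start, at chr18:13130761, and ends at chr18:13151457, whereas the mm10 gene spans 38.3 kb. Whether that mm9 start lies at the inner peak was not tested. Zdbf2, a gene of the paternal allele, had 5.38, 4.92 and 5.46 at the 5′ end and 24.2, 21.2 and 25.02 at the start 72.9 kb downstream. At Zdbf2 and Impact the inner peak was above that of the 5′ end in both replicates.

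Peaks inside the gene and away from the promoter were found in 28 of the 43 genes, 113 in all when a peak within overlapping genes is counted for each of them. Among the coding genes they were found in 24 of 38, and in 43.6% of the other coding genes. The list holds host genes with another gene's start inside, and gene lengths were not matched, so these shares are not directly comparable. Within the mm9 lists, 42 of the 44 genes had an annotated gene of the same name, all but Kcnq1ot1 and Peg13. Of these, 36 of 38 coding genes had a region within 1 kb of any annotated start, where 70.1% of all coding genes did. Among the noncoding genes 3 of 4 did, where 52.5% of all noncoding genes did. The genes without a region in mm9 were H19, Rtl1 and Usp29. Igf2, Snrpn, Commd1, Ddc and Nap1l5, unmarked at the mm10 5′ end, each had a region at an annotated start in mm9, with highest signals of 13.4, 20.5, 18.8, 6.80 and 2.68. Signals of the builds are not on a common scale, since the sources used here do not give the denominator of the mm9 ratio.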

How the data were processed

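The authors deposited 4 peak lists on mm10 and 3 on mm9; per the deposited file descriptions, each replicate's mm10 list came from its alignments and 1 control file, the pooled list from both replicates and 2 control files, and the replicated list from these 3. For the aligner, peak caller and settings: not given in the sources used here. The deposited signal value is a ratio per peak, with the −log10 of the q-value and a summit position on mm10 and the q-value itself on mm9. Values under the calling threshold are absent from a list, so an unmarked gene had no peak above it.

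Gene ends came from a RefSeq table (GRCm38.p6); strand came from the RefSeq promoter table or, by name or synonym, from GENCODE vM1, and genes without one were left out. The mm9 lists were set against every vM1 start. A gene's signal is its highest peak's. Python 3.11.15 was used; overlap and joining were tested on simulated data. The genes and lists were chosen with earlier results of these data known, so no test was made. Every member was named; promoters shown were chosen among known germline differentially methylated starts. Alternatives covered replicates, lists, windows, q-value, joining and starts. Columns of other samples numbered 0.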

Additional observations from a re-analysis of the deposited data

How the results depend on the processing

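The number of marked imprinted genes, 36 of 43, ranged from 36 to 37 when either replicate was left out, and from 32 to 40 over all alternatives. Requiring the summit within 1 kb left out Dlk1, Impact, Kcnq1ot1 and Phlda2, which took the Kcnq1 cluster from 5 to 3. Replicate 2 alone and the pooled list added Nap1l5, a window of 2 kb added Commd1, and counting every RefSeq start, an alternative chosen after seeing the data, added Commd1, Ddc, Igf2 and Snrpn. The median signal, 26.2 in the replicated list, was 24.8 without replicate 2 and 21.5 without replicate 1. Over the other marked genes it was 39.7, 35.5 and 33.7 in the same order. The median domain width, 2681 bp in the replicated list, was 2734.5 bp without replicate 2 and 2758 bp without replicate 1. It was 2872 bp in the pooled list and 2238.5 bp with a q-value under 1e-05. Without joining it was 1997.5 bp, and 3153.5 bp when peaks under 3 kb apart were joined. In mm9 the number with a region, 39 of 42, ranged from 34 with the 5′-most start only to 40 with a window of 2 kb. The other counts by cluster, 0 at H19-Igf2 included, stayed within 1.5 times over the replicates, lists, windows, q-value and summit rule, and counts by cluster were not run for every RefSeq start, which adds Igf2. The cause of these shifts was not tested. Depth is unknown, so genes near the threshold such as Nap1l5 and Plagl1 are the least certain.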

Other observations

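Other imprinted genes also ranged from no peak to strong peaks. Of 48 further names, 45 had a 5′ end and 32 of these were marked, with a median signal of 30.5. Of the coding genes 31 of 39 were marked, beside 66.6% of all coding genes, and of the noncoding genes 1 of 6, beside 32.5%. Cd81, Tssc4 and Nap1l4, neighbours in the Kcnq1 region that are imprinted mainly in placenta, had 70.5, 60.8 and 64.9 in the replicated list. Ascl2, a transcription factor of the placenta from the same region, had 20.8. Rian and Mirg, noncoding RNAs downstream of Meg3, had no peak at their 5′ ends, nor did Ins2 and Asb4. Sfmbt2, an imprinted polycomb gene, had 11.01 in replicate 1, 30.8 in replicate 2 and 33.9 in the replicated list. Among 23 factors that protect or erase imprints, all coding, 20 were marked, with a median of 56.4. Trim28, the corepressor recruited by Zfp57, had 75.6. Zfp57 itself had 4.39 at the 5′ end and 62.3 at another RefSeq start. Uhrf1, which recruits the maintenance methyltransferase, had 57.2, and Dnmt1, that enzyme, had no peak at the 5′ end and 55.2 at another start. Dppa3, which protects maternal methylation in the early embryo, had 7.33.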
